A study of Mus musculus with 6 samples.

Results

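The 8 genes described here are regulators and surface proteins of the B cell lineage: *Cd79a*, *Cd79b* and *Ms4a1*, which mark B cells at their surface, *Bcl6*, *Prdm1* and *Irf4*, the transcription factors that set a B cell on a germinal center or a plasma cell course, and *Sdc1* and *Tnfrsf17*, which are found at the surface of plasma cells. They were taken by name, not by their values, from a table of 27202 mouse genes, and all 8 were measured. The table holds RNA-seq of colon from *Nedd4l* fl/fl VillinCre mice (3 libraries) and from *Nedd4l* fl/fl littermates (3 libraries). Both genotypes carried the floxed *Nedd4l* allele, were 8 to 10 weeks old and drank 2% dextran sulfate sodium (DSS), a polymer that injures the colon epithelium and causes colitis, with collection on day 7. Cre was driven by the Villin promoter, which is active in intestinal epithelial cells, and whole colon also holds cells in which it is not active, B cells among them. No untreated mice were analysed here. The comparison addressed whether the loss of *Nedd4l* from the epithelium went with another level of the transcripts of these 8 genes in the injured colon. Libraries of whole colon do not show which cells made a transcript, so the values are not those of B lineage cells alone. Nothing in the labels says whether each library came from 1 mouse, so p-values measure the spread between these libraries.

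As background, CD79A and CD79B are the paired signaling chains of the B cell receptor, and MS4A1 (CD20) is a membrane protein that B cells lose when they become plasma cells. BCL6 holds germinal center B cells in their state by repressing the plasma cell program, whereas PRDM1 (Blimp-1) represses the B cell program and IRF4 is needed for the switch between them. The colon holds B cell follicles and, in the lamina propria, many IgA-secreting plasma cells. SDC1 (CD138) and TNFRSF17 (BCMA, a receptor for the survival factors APRIL and BAFF) mark plasma cells, but SDC1 is also a proteoglycan of epithelial cells.

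The values are normalized read counts: the authors divided the reads of each gene by a size factor for the library. Counted in the steps of their own values, the libraries totalled 14914367 to 17547270 reads. *Nedd4l* was at 476 to 942 normalized counts in *Nedd4l* fl/fl VillinCre colon and at 1241 to 1271 in *Nedd4l* fl/fl colon, without overlap (log2 fold change -0.99, limma adjusted p = 0.225). *Nedd4l* fl/fl VillinCre replicate 2 had the highest *Nedd4l* value of its genotype, and its log2 values correlated more with the *Nedd4l* fl/fl libraries (mean Pearson r = 0.977) than with its own genotype (0.966). *Nedd4l* fl/fl VillinCre replicate 1 stood apart in its neutrophil and pan-leukocyte markers, given beside the B cell values. All fold changes are *Nedd4l* fl/fl VillinCre over *Nedd4l* fl/fl on the log2(value + 1) scale, and p-values were adjusted over the 16246 genes whose mean was 10 or more.

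Promoter sequence was read from the RefSeq table of mouse promoters (build GRCm38.p6), which matched 6 of the 8 genes and held no entry for *Cd79b* or *Ms4a1*. Each window runs from 250 bases before to 50 bases after the annotated start, and only bases outside the gene, as the table of counts bounds it, are given here. The 3 shown stand for a B cell receptor gene, the germinal center factor and the plasma cell surface gene that had motif matches. Capitals mark matches to the EBF core motif, the letters CCCNNGGG bound by early B cell factors, and each sequence reads 5′ to 3′ on the strand of its gene.
Cd79a, chr7:24897247-24897380, plus strand: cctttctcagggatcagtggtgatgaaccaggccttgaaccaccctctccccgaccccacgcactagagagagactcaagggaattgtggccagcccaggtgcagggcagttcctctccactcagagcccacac
Bcl6, chr16:23988853-23989102, minus strand: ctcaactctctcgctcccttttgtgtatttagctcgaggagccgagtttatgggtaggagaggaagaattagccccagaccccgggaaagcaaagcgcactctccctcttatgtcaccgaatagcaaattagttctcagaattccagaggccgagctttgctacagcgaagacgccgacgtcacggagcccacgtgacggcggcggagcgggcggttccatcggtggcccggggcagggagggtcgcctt
Sdc1, chr12:8771146-8771322, plus strand: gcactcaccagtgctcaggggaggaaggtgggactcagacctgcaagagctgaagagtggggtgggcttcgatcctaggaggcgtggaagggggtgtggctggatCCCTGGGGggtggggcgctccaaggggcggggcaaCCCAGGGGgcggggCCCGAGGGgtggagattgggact

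4 motifs of B lineage factors were searched on both strands of the windows of the 6 genes. The EBF core occurred in 13.7% of 32851 promoter windows of this length, the octamer ATGCAAAT in 1.74%, the ETS-IRF composite in 2.72% and the NF-kB core in 5.78%. The *Sdc1* window held 3 EBF cores, at positions -145, -110 and -96 from the RefSeq start, and 1 of 2 *Bcl6* windows, not the one printed, held 1 ETS-IRF composite at -28. The windows of *Cd79a*, *Prdm1*, *Irf4* and *Tnfrsf17* held no match to these exact letters. Sites that depart from the letters were not searched, so the absence of a match does not show that a factor has no site there. The printed *Sdc1* bases were the most GC-rich of the 3 at 68.4%, against 59.7% for *Cd79a* and 58.4% for *Bcl6*.

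None of the 8 genes differed between the genotypes in the limma test: 0 of 8 passed an adjusted p of 0.05 and 0 of 8 an unadjusted p of 0.05. Over all 16246 genes tested, 0% passed the adjusted threshold and 14% the unadjusted one. The adjusted p-values of the 8 ran from 0.439 to 0.862, with 5 log2 fold changes above 0, 3 below 0 and a median of 0.28, against a median of 0.00132 over all genes tested. Of all genes tested, 50.2% had a log2 fold change above 0. In 1 of 8, *Bcl6*, the libraries of the genotypes did not overlap, which was so for 21.4% of all genes tested. Because these are libraries of whole tissue, fewer cells of a type and less RNA per cell cannot be told apart at any value below.

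**Figure D1:**
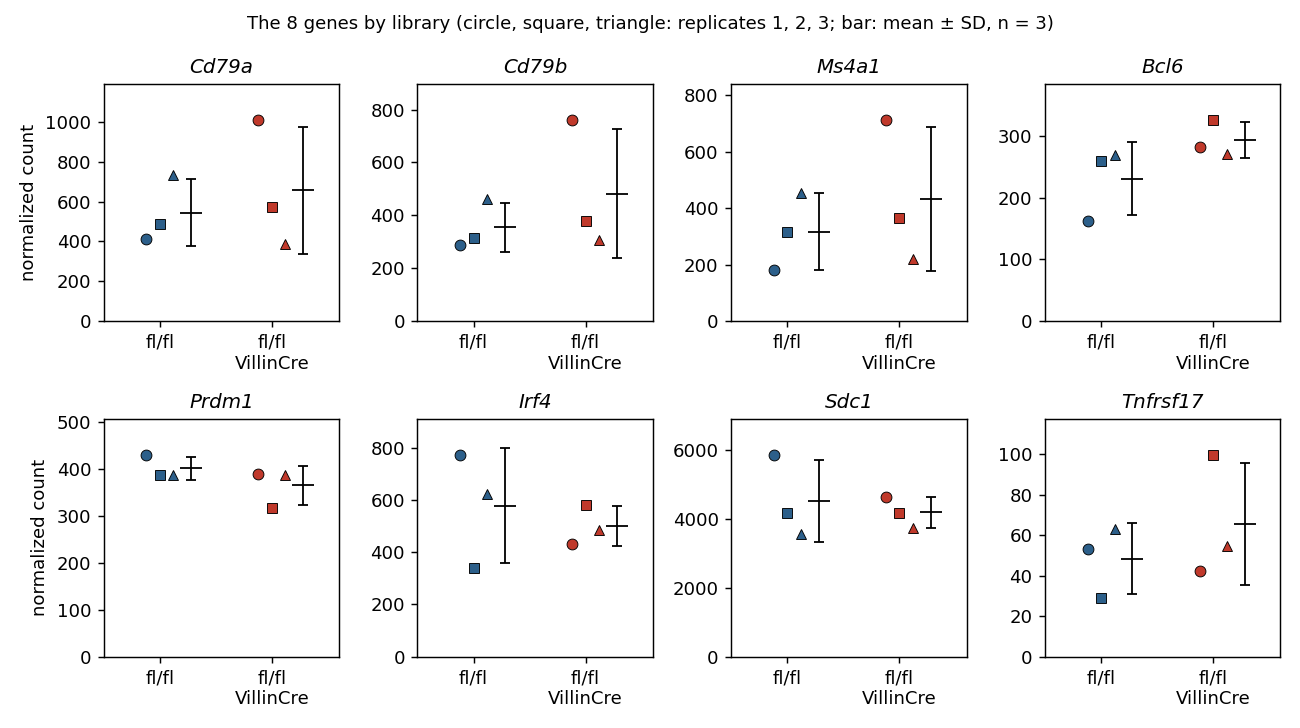
Normalized counts of the 8 genes in each library, with 1 panel per gene, a circle, square and triangle for replicates 1, 2 and 3 of each genotype, and a bar for the mean ± SD (n = 3). *Cd79a*, *Cd79b* and *Ms4a1* share the same highest library, *Nedd4l* fl/fl VillinCre replicate 1, and *Bcl6* is the gene whose genotypes do not overlap, by a gap of 271 against 269.

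*Cd79a* (ENSMUSG00000003379, chromosome 7, 24897381 to 24902197, plus strand, GRCm38) was at 1010, 574 and 388 normalized counts in *Nedd4l* fl/fl VillinCre replicates 1, 2 and 3. In *Nedd4l* fl/fl replicates 1, 2 and 3 it was at 411, 490 and 733. The highest and the lowest library were both *Nedd4l* fl/fl VillinCre, and all *Nedd4l* fl/fl values lay between them. Averages of 657 ± 320 and 545 ± 168 (SD, n = 3 each) gave a log2 fold change of 0.20 ± 0.39 (SE) with a 95% interval of -0.76 to 1.17 and a limma adjusted p of 0.84.

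*Cd79b* (ENSMUSG00000040592, chromosome 11, 106311341 to 106314762, minus strand), the partner chain, was at 761, 379 and 307 in *Nedd4l* fl/fl VillinCre and at 288, 315 and 462 in *Nedd4l* fl/fl colon. Replicate 1 of *Nedd4l* fl/fl VillinCre was again far above the rest, and the other libraries overlapped. The means of 483 ± 244 and 355 ± 93.7 (SD, n = 3 each) gave a log2 fold change of 0.36 ± 0.37 (SE), with an interval of -0.53 to 1.25 and a limma adjusted p of 0.675.

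*Ms4a1* (ENSMUSG00000024673, chromosome 19, 11249675 to 11266241, minus strand), the CD20 gene, was at 712, 365 and 219 in *Nedd4l* fl/fl VillinCre and at 181, 317 and 453 in *Nedd4l* fl/fl colon. It had the widest spread of the 8 within a genotype, 3.26-fold between the *Nedd4l* fl/fl VillinCre libraries and 2.51-fold between the *Nedd4l* fl/fl libraries. The means were 432 ± 254 and 317 ± 136 (SD, n = 3 each), the log2 fold change was 0.38 ± 0.52 (SE), the interval -0.91 to 1.66 and the limma adjusted p 0.767. The antisense gene *4930526L06Rik* overlaps it and averaged 1.5 normalized counts. Whether the counting used strand is not given in the sources used here.

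The 3 B cell surface genes were each higher on average in *Nedd4l* fl/fl VillinCre colon, and this direction rested on 1 library. Without *Nedd4l* fl/fl VillinCre replicate 1 the log2 fold changes were -0.16 for *Cd79a*, -0.026 for *Cd79b* and -0.068 for *Ms4a1*, and the median of the 3 went from 0.36 to -0.068. Without *Nedd4l* fl/fl replicate 1, where *Ms4a1* and *Cd79b* were lowest, the median was 0.021. With limma array weights, which weigh libraries by how well they match their genotype over all genes, it was -0.31.

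That library also had the highest summed level of neutrophil and of pan-leukocyte markers, but not of T cell, macrophage or dendritic cell markers. The summed level of 10 neutrophil markers was 10434 normalized counts in *Nedd4l* fl/fl VillinCre replicate 1 and 3055 and 3398 in the other two of its genotype, against 3013 to 3270 in *Nedd4l* fl/fl colon. *Ly6g*, at 2200 to 3136 in all libraries, made up most of the sum outside replicate 1, and the other 9 markers summed to 7946, 222 and 1199 against 184, 134 and 169, so every *Nedd4l* fl/fl VillinCre library was above every *Nedd4l* fl/fl library. Of the 10 markers 9 were tested, with 8 log2 fold changes above 0 and 1, *Ly6g*, below, and 0 passed the limma test. At an unadjusted p of 0.05, 4 were higher and 1 lower, against 6.91% and 7.08% of all genes tested, and in 5 of 9 all *Nedd4l* fl/fl VillinCre libraries were above all *Nedd4l* fl/fl libraries, against 10.5%. Here *Cxcr2* was at 0 in *Nedd4l* fl/fl replicates 1 and 3 and *Mmp8* in replicate 3. *S100a8*, a calprotectin subunit of neutrophils, was at 2708, 31.0 and 417 against 12.8, 38.7 and 29.0. The 4 pan-leukocyte markers summed to 7320 in that library and to 3831 to 5200 in the other 5, and *Ptprc*, the CD45 gene, was at 2506 there and at 1320 to 1861 in the other 5. The summed level of 14 epithelial markers was lowest there, 275484 against 311137 to 349730 in the other 5. The part of these in the B cell values was not tested.

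The 3 genes moved together over the 6 libraries. As a description, the log2 values of *Cd79a* and *Cd79b* correlated with Pearson r = 0.969 and Spearman rho = 0.943 (exact permutation p = 0.00278 and 0.0167, or 0.0259 and 0.156 after adjustment over the 28 pairs of the 8 genes). For *Cd79a* and *Ms4a1* r was 0.973 and rho 0.943 with the same 4 p-values. For *Cd79b* and *Ms4a1* r was 0.938 and rho 1, with exact permutation p = 0.00139 and 0.00278, or 0.0259 and 0.0778 adjusted. After the genotype means were removed r was 0.981, 0.974 and 0.935 for these pairs, and without the 2 libraries farthest from the median it was 0.879, 0.914 and 0.866 over 4 libraries. The points share libraries and their size factors. The labels name no batch within which the relation could be recomputed.

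**Figure D2:**
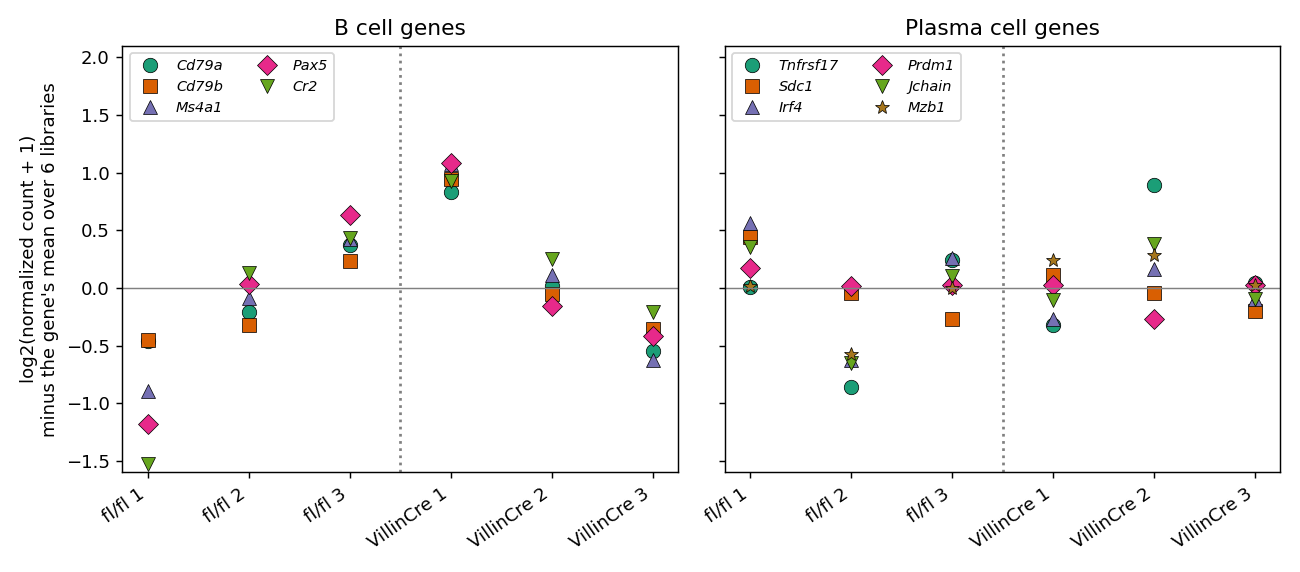
For each library, the log2(normalized count + 1) of a gene minus its mean over the 6 libraries, with 1 symbol per gene, B cell genes on the left, plasma cell genes on the right and a dotted line between the genotypes. *Sdc1*, on the right, is also a gene of epithelial cells. *Cd79a*, *Cd79b* and *Ms4a1* lie together with *Pax5* and *Cr2* and are highest in *Nedd4l* fl/fl VillinCre replicate 1, whereas *Tnfrsf17* is highest, at 99.5 normalized counts, in *Nedd4l* fl/fl VillinCre replicate 2.

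The ratio of *Cd79b* to *Cd79a* was accordingly narrow, 0.631 to 0.793 over the 6 libraries, and that of *Ms4a1* to *Cd79a* ran from 0.44 to 0.705. Of 11879 other protein-coding genes with a mean of at least 50, the ones most like *Cd79a* over the 6 libraries were *Stap1* (Pearson r = 0.996), an adaptor of B cell receptor signaling, *Acap1* (0.994) and *Sipa1* (0.99). *Ms4a1* was at rank 9 and *Cd79b* at rank 13 of that order.

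**Figure D3:**
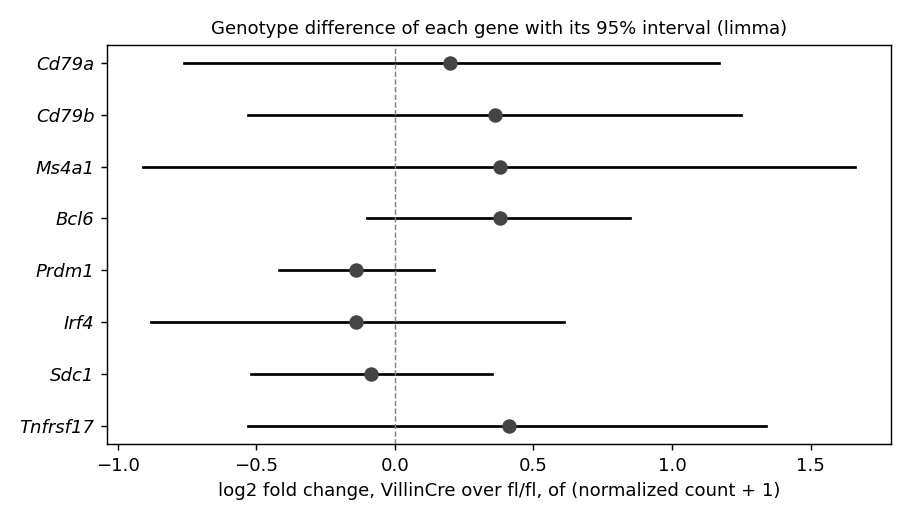
Log2 fold change of each of the 8 genes, *Nedd4l* fl/fl VillinCre over *Nedd4l* fl/fl, with its 95% interval from limma. All 8 intervals cross 0, and those of *Ms4a1* (-0.91 to 1.66) and *Cd79a* (-0.76 to 1.17) are wider than that of *Prdm1* (-0.42 to 0.14).

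Among the transcription factors, *Bcl6* (ENSMUSG00000022508, chromosome 16, 23965052 to 23988852, minus strand), whose promoter is printed above, was at 282, 326 and 271 normalized counts in *Nedd4l* fl/fl VillinCre and at 163, 260 and 269 in *Nedd4l* fl/fl colon. All *Nedd4l* fl/fl VillinCre libraries were above all *Nedd4l* fl/fl libraries, but replicate 3 of each genotype were within 2 normalized counts of each other and *Nedd4l* fl/fl replicate 1 was far below the rest. The means were 293 ± 29.1 and 231 ± 58.7 (SD, n = 3 each). The log2 fold change was 0.38 ± 0.21 (SE), the interval -0.10 to 0.85, the limma adjusted p 0.439 and the two-sided exact permutation p 0.1, the smallest that 3 against 3 libraries allow. Without *Nedd4l* fl/fl replicate 1 the log2 fold change was 0.14.

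*Prdm1* (ENSMUSG00000038151, chromosome 10, 44437177 to 44528501, minus strand), the Blimp-1 gene, was at 389, 317 and 388 in *Nedd4l* fl/fl VillinCre and at 429, 386 and 388 in *Nedd4l* fl/fl colon. The libraries lay close to each other, with *Nedd4l* fl/fl VillinCre replicate 2 the lowest and the rest overlapping. The means of 365 ± 41.1 and 401 ± 23.9 (SD, n = 3 each) gave a log2 fold change of -0.14 ± 0.12 (SE), with an interval of -0.42 to 0.14 and a limma adjusted p of 0.612. It was the most precisely measured contrast of the 8.

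*Irf4* (ENSMUSG00000021356, chromosome 13, 30749226 to 30766976, plus strand) was at 433, 583 and 487 in *Nedd4l* fl/fl VillinCre and at 772, 338 and 624 in *Nedd4l* fl/fl colon. The highest and the lowest library were both *Nedd4l* fl/fl, and the *Nedd4l* fl/fl VillinCre values lay between them. The means were 501 ± 75.7 and 578 ± 221 (SD, n = 3 each), the log2 fold change was -0.14 ± 0.31 (SE), the interval -0.88 to 0.61 and the limma adjusted p 0.862. Without *Nedd4l* fl/fl replicate 1, its highest library, the log2 fold change was 0.11. The ratio of *Irf4* to *Bcl6* ran from 1.3 to 4.74 over the libraries and that of *Prdm1* to *Bcl6* from 0.973 to 2.63.

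At the plasma cell surface, *Sdc1* (ENSMUSG00000020592, chromosome 12, 8771323 to 8793715, plus strand), the gene with 3 EBF cores in its window, was at 4650, 4180 and 3741 in *Nedd4l* fl/fl VillinCre and at 5852, 4163 and 3565 in *Nedd4l* fl/fl colon. *Nedd4l* fl/fl replicate 1 was the highest and replicate 3 the lowest, so the other genotype lay inside their range. The means of 4190 ± 454 and 4527 ± 1186 (SD, n = 3 each) gave a log2 fold change of -0.085 ± 0.18 (SE), with an interval of -0.52 to 0.35 and a limma adjusted p of 0.855. Without *Nedd4l* fl/fl replicate 1 it was 0.12. SDC1 is also a proteoglycan of epithelial cells, so these values of whole colon are not those of plasma cells alone. The share of each cell type was not tested.

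*Tnfrsf17* (ENSMUSG00000022496, chromosome 16, 11313812 to 11320074, plus strand), the BCMA gene and the lowest of the 8, was at 42.2, 99.5 and 54.7 in *Nedd4l* fl/fl VillinCre and at 53.3, 28.8 and 62.9 in *Nedd4l* fl/fl colon. Replicate 2 held the highest value of one genotype and the lowest of the other, and the rest overlapped. The means were 65.4 ± 30.1 and 48.3 ± 17.6 (SD, n = 3 each). The log2 fold change was 0.41 ± 0.40 (SE), with an interval of -0.53 to 1.34 and a limma adjusted p of 0.659. Leaving out replicate 2 of *Nedd4l* fl/fl VillinCre made it 0.063, leaving out replicate 1 of that genotype 0.67, and leaving out replicate 2 of *Nedd4l* fl/fl 0.08. The library with the highest *Tnfrsf17* was not the one with the highest B cell surface genes, and its ratio to *Cd79a* ran from 0.0417 in *Nedd4l* fl/fl VillinCre replicate 1 to 0.173 in replicate 2.

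Pairs outside the B cell surface genes correlated less, and the adjusted p of the exact permutation test was 0.742 or more in each of the other 25 pairs. *Bcl6* and *Prdm1* had r = -0.803 and rho = -0.486 (exact permutation p = 0.165 for r). Without the 2 libraries farthest from the *Bcl6* median their r was 0.914 over 4 libraries, so the sign did not hold. *Bcl6* and *Sdc1* had r = -0.746 and rho = -0.0857, and r = 0.443 over 4 libraries. *Cd79a* and *Tnfrsf17* had r = -0.00771 over the 6 libraries. *Irf4* and *Tnfrsf17* had r = 0.675 and rho = 0.6 (exact permutation p = 0.139 for r), and *Irf4* was at rank 944 among the genes most like *Tnfrsf17*. The 3 most like *Tnfrsf17* were *Tspan15* (0.985), *Xpc* (0.984) and *Nos1ap* (0.981), and the 3 most like *Prdm1* were *Zfand5* (0.983), *Adat2* (0.972) and *Macc1* (0.969).

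Divided by the length of its exons, the level of *Sdc1* was the highest of the 8, 1100 ± 119 normalized counts per kb in *Nedd4l* fl/fl VillinCre and 1188 ± 311 in *Nedd4l* fl/fl colon (SD, n = 3 each). *Cd79a* followed with 451 ± 219 and 374 ± 115, and *Cd79b* with 337 ± 170 and 248 ± 65.5. *Irf4* was at 102 ± 15.4 and 118 ± 45.0 per kb. *Tnfrsf17* (80.3 ± 37.0 and 59.3 ± 21.6), *Ms4a1* (69.8 ± 41.0 and 51.2 ± 22.0) and *Prdm1* (65.4 ± 7.37 and 71.9 ± 4.29) differed from each other by less than the larger SD of each pair. In *Nedd4l* fl/fl colon *Prdm1* was farther from the others than its own SD. *Bcl6* was lowest at 43.7 ± 4.34 and 34.4 ± 8.76. Of *Cd79a* and *Cd79b*, which follow each other in this order, *Cd79a* was the higher in all 6 libraries.

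The wider pathway was read from lists of genes, some of which share members. The counts above and below 0 in each list stand against 50.2% above 0 over all genes tested. In a list of 25 other B cell surface and identity genes, 25 had a log2 fold change above 0, from 0.037 to 0.65 with a median of 0.35, and 0 passed the limma test (lowest adjusted p 0.416) or an unadjusted p of 0.05. By library, 23 of the 25 were highest in *Nedd4l* fl/fl VillinCre replicate 1 and 17 were lowest in *Nedd4l* fl/fl replicate 1. Without the former, 13 were above 0 and 12 below with a median of 7.2e-05, and without the latter 16 and 9 with a median of 0.097. *Pou2af1*, a coactivator of octamer factors in B cells, was at 1098, 803 and 663 against 548, 408 and 791 (log2 fold change 0.57, limma adjusted p = 0.416). *Pax5*, the factor that keeps B cell identity, was at 553, 233 and 194 against 114, 266 and 404 (0.34, adjusted p = 0.82). *Cr2*, a complement receptor of B cells named after its values were seen, was at 478, 298 and 216 against 85.9, 273 and 337 (0.65, adjusted p = 0.631).

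Of 20 genes of B cell receptor signaling, 17 were above 0 and 3 below, with a median of 0.22 that was 0.03 without *Nedd4l* fl/fl VillinCre replicate 1. 0 passed the limma test. At an unadjusted p of 0.05, 0 were higher (6.91% of all genes tested) and 1 was lower (7.08% of all genes tested). *Malt1*, a protease of NF-kB signaling, was at 756, 598 and 623 against 517, 552 and 586, above all *Nedd4l* fl/fl libraries (0.25, adjusted p = 0.375). The genotypes did not overlap in 1 of the 20 in each direction, against 10.5% (higher) and 10.9% (lower) of all genes tested.

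The germinal center and follicle list had 22 of its 25 genes tested, 20 above 0 and 2 below with a median of 0.34. The 2 below were *Ezh2* and *Rgs13*, the latter named after its values were seen. *Rgs13* was at 7.67, 31.0 and 2.06 against 16.8, 36.0 and 47.9 (log2 fold change -1.75, limma adjusted p = 0.406). By library, 13 of the 22 were highest in *Nedd4l* fl/fl VillinCre replicate 1 and 16 lowest in *Nedd4l* fl/fl replicate 1. The median was 0.13 without the former, 0.035 without the latter, with 14 above 0 and 8 below, and 0.031 with array weights. 0 passed the limma test, and 1 in each direction had an unadjusted p under 0.05, against 6.91% higher and 7.08% lower over all genes tested. *Fas*, the death receptor that germinal center B cells carry, was at 329, 220 and 257 against 165, 132 and 210 (log2 fold change 0.67 ± 0.22, limma adjusted p = 0.286). *Ezh2*, a histone methyltransferase of dividing cells including germinal center B cells, was at 679, 663 and 623 against 783, 896 and 868 (-0.37 ± 0.09, adjusted p = 0.211). In both genes the genotypes did not overlap, which was so for 10.5% (higher) and 10.9% (lower) of all genes tested. *Cxcl13*, the chemokine that draws B cells into follicles, was named after its values were seen: it was at 2242 in *Nedd4l* fl/fl VillinCre replicate 1 and at 257 to 474 in the other 5 libraries (log2 fold change 0.99, adjusted p = 0.584).

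In the list of class switch machinery 4 of 18 genes were above 0 and 14 below, with a median of -0.19, and 0 passed the limma test. In 7 of the 18 the genotypes did not overlap, with *Nedd4l* fl/fl VillinCre the lower, against 10.9% of all genes tested, and the same 7, among them *Ung*, *Msh6*, *Pms2*, *Exo1* and *Xrcc6*, were lower at an unadjusted p under 0.05, against 7.08% of all genes tested. *Ung*, a uracil glycosylase of base excision repair in all dividing cells, was at 233, 232 and 225 against 370, 433 and 443 (log2 fold change -0.85 ± 0.12, limma adjusted p = 0.116). *Msh6* was at 695, 679 and 574 against 871, 950 and 934 (-0.50 ± 0.10, adjusted p = 0.171), and the oppositely oriented *Fbxo11* overlaps it with a mean of 1009. *Msh6* is a DNA repair gene that cells other than B cells also use. With no filter on low values *Ung* passed the threshold (adjusted p = 0.0418), and so it did without *Nedd4l* fl/fl VillinCre replicate 2 (0.0495). Unlike that of the B cell surface genes, the direction of this list did not rest on *Nedd4l* fl/fl VillinCre replicate 1: without it, 2 of 18 were above 0 and 16 below, with a median of -0.29.

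**Figure D4:**
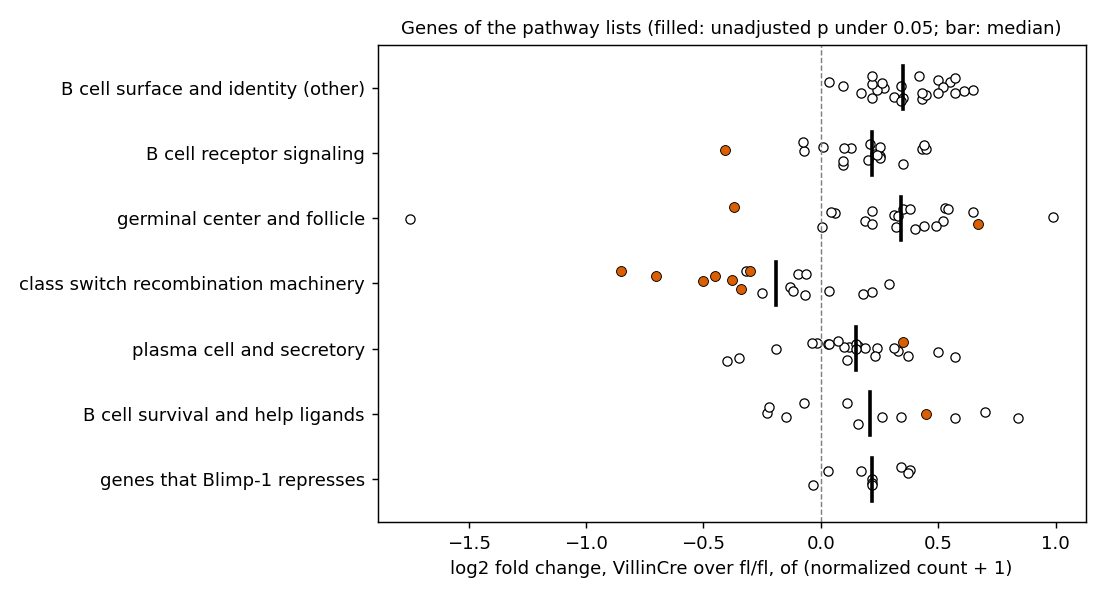
Log2 fold change of every tested gene of the pathway lists, with 1 row per list, a bar at the median, and filled points for an unadjusted limma p under 0.05. The 25 B cell surface genes all lie above 0 with no filled point, and the class switch list has 7 filled points below 0.

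The 23 plasma cell and secretory genes had 18 above 0 and 5 below with a median of 0.15, and 0 passed the limma test. Without *Nedd4l* fl/fl replicate 2 the median was 0.068, with 15 above 0 and 8 below. At an unadjusted p of 0.05, 1 of 23 was higher, against 6.91% of all genes tested: *Zbtb20*, a zinc finger factor of plasma cell survival, at 624, 569 and 569 against 475, 491 and 421 (log2 fold change 0.35, limma adjusted p = 0.268). *Mzb1*, a chaperone of immunoglobulin assembly, was at 843, 869 and 727 against 724, 478 and 715 (0.37, adjusted p = 0.379). *Jchain*, the joining chain of secreted IgA and IgM, was named after its values were seen and was at 28403, 39655 and 28546 against 38977, 19440 and 32804 (0.12, adjusted p = 0.862). By library, 4 of the 23 were highest in *Nedd4l* fl/fl VillinCre replicate 1, 8 in replicate 2, and 13 were lowest in *Nedd4l* fl/fl replicate 2.

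Of 17 genes for B cell survival and help, 12 were tested, with 8 above 0 and 4 below, or 6 and 6 without *Nedd4l* fl/fl replicate 2. *Cd40lg*, *Il4*, *Il5*, *Il6* and *Il21* had means under 10 and were not tested. Among them *Il6*, a cytokine of plasma cell differentiation and of inflammation singled out after its values were seen, was at 15.3, 9.95 and 20.6 against 0, 1.8 and 2.0. The genotypes did not overlap, which was so in this direction for 10.5% of the genes that were tested. In the limma fit with no filter on low values the log2 fold change of *Il6* was 2.95 ± 0.61 (SE), with an unadjusted p of 0.000268 and an adjusted p of 0.0904. *Tgfb1*, which directs switching to IgA, was at 622, 440 and 457 against 424, 294 and 394 (log2 fold change 0.45, limma adjusted p = 0.343). *Tnfsf13b*, the BAFF gene, was at 405, 286 and 281 against 233, 242 and 285 (0.34, adjusted p = 0.414). Of 9 genes that Blimp-1 represses, a list that includes *Bcl6*, 8 were above 0 with a median of 0.22, while 4 were above 0 with a median of -0.072 without *Nedd4l* fl/fl VillinCre replicate 1 and 3 with a median of -0.035 without *Nedd4l* fl/fl replicate 1. *Ciita*, the master factor of MHC class II genes and 1 of the 9, was at 1271, 985 and 1244 against 807, 785 and 1143 (0.37, adjusted p = 0.374).

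Other cell types were read from their markers. 12 T cell markers summed to 1062 to 1353 in *Nedd4l* fl/fl VillinCre and 1091 to 1453 in *Nedd4l* fl/fl colon, with 5 above 0 and 7 below. 12 macrophage and monocyte markers summed to 11945 to 13929 and 7444 to 11602, with 12 above 0, a median of 0.36 and 4 higher at an unadjusted p under 0.05, against 6.91% of all genes tested. In 11 of the 12 *Nedd4l* fl/fl replicate 2 was the lowest library, and without it the median was 0.14, with 8 above 0 and 4 below. In 3 of the 12, all *Nedd4l* fl/fl VillinCre libraries were above all *Nedd4l* fl/fl libraries, against 10.5% of all genes tested. Among these, *Lyz2*, a lysozyme gene of myeloid cells, was at 5467, 5830 and 4727 against 4254, 2795 and 4081 (log2 fold change 0.54, limma adjusted p = 0.282). *Ly6c2* and *Fcgr1*, also among the 3, were named after their values were seen. *Ly6c2* was at 396, 427 and 395 against 165, 81.9 and 165 (1.63, limma adjusted p = 0.137). *Fcgr1* was at 161, 125 and 126 against 74.1, 56.7 and 68.9 (1.03, limma adjusted p = 0.169). Dendritic cell markers summed to 467 to 620 and 486 to 606, with 2 of 7 tested above 0. The 14 epithelial markers, by which the colon label was checked, were all present at a summed level of 275484 to 349730, with 3 above 0 and 11 below in the comparison.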

How the data were processed

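Colon RNA was sequenced in 6 libraries, 3 per genotype. The table deposited by the authors holds a signal for each gene and library, namely its reads scaled by a size factor for that library. Every value was a whole multiple of a step of 0.9 to 1.11 that differed between libraries. The submitters' processing notes name HISAT2 2.0.5, featureCounts 1.5.0-p3 and the build hg18, which is human. The gene coordinates of the table were identical to GENCODE mouse release M21 (GRCm38) for 97.2% of its 27202 genes, all 8 genes included, so GRCm38 was used. The annotation, the strand setting and the authors' test are not given in the sources used here. The authors' own means, fold changes, p-values and adjusted p-values in the table were not used.

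Genes with a mean of at least 10 were fitted with limma 3.58.1 (R 4.3.3, trend and robust options) on log2(value + 1), with Benjamini-Hochberg adjustment over all genes tested and a threshold of 0.05. The addition of 1 shrinks the fold change of low genes. The fit was tested on simulated data with independent noise for each gene and library. These data held no outlying library and no genes that moved together, so that test does not cover either feature. Exact permutation tests were two-sided and cannot go below 0.1 for 3 against 3 libraries. Levels per kb used the gene length of the table. The 8 genes and the gene lists were chosen with earlier results of these data known. The genes named were the 8, *Nedd4l*, of each pathway list the 3 tested genes with the smallest p, of each marker list the 2 highest, and the 3 genes most like *Cd79a*, *Prdm1* and *Tnfrsf17*. Some genes that this rule names are not reported here, but they stayed in the fits and in the list counts. Any other gene was named after its values were seen. 12 alternatives were tried.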

Additional observations from a re-analysis of the deposited data

How the results depend on the processing

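None of the 8 genes passed the threshold under any of the 12 alternatives run (adjusted p 0.349 to 0.992), and 88 of their 96 values kept their direction. With array weights the log2 fold change was -0.35 for *Cd79a*, -0.11 for *Cd79b*, -0.31 for *Ms4a1*, -0.35 for *Stap1*, -0.18 for *Acap1*, -0.20 for *Sipa1*, -0.21 for *Pax5*, -0.35 for *Ebf1*, -0.031 for *Jchain* and 0.20 for *Itgax*, all on the other side of 0. These weights were 0.414, 0.562 and 4.39 for *Nedd4l* fl/fl VillinCre and 0.921, 0.792 and 1.34 for *Nedd4l* fl/fl replicates 1 to 3, so *Nedd4l* fl/fl VillinCre replicate 3 counted most. Leaving out 1 library at a time gave ranges of -0.16 to 0.53 for *Cd79a*, -0.026 to 0.63 for *Cd79b*, -0.068 to 0.78 for *Ms4a1*, -0.48 to 0.11 for *Irf4*, -0.24 to 0.12 for *Sdc1*, 0.14 to 0.50 for *Bcl6*, -0.19 to -0.044 for *Prdm1*, 0.063 to 0.67 for *Tnfrsf17*, -0.17 to 0.75 for *Pax5*, -0.22 to 0.53 for *Ebf1* and -0.17 to 0.33 for *Jchain*. The ranges were -0.10 to 0.70 for *Stap1*, -0.053 to 0.45 for *Acap1*, -0.091 to 0.28 for *Sipa1*, -0.019 to 0.32 for *Nos1ap*, -0.37 to 0.053 for *Cd4*, -0.32 to 0.0021 for *Lck* and -0.19 to 0.10 for *Itgax*. Of 624 values of 52 named genes, 584 kept their direction and side of the threshold, 8 passed it and 32 changed sign.

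Over all genes, 0 were called higher and 0 lower in the limma fit reported, but 7 and 23 with no filter on low values, 262 and 369 with array weights, and 0 to 70 and 0 to 52 when 1 library was left out, the most without *Nedd4l* fl/fl VillinCre replicate 2. Without replicate 1 of that genotype 2 and 22 were called. In the class switch list 1 gene was called lower with no filter (*Ung*, adjusted p = 0.0418), 5 with array weights (among them *Exo1*, *Msh6*, *Ung* and *Xrcc6*) and 0 to 1 when 1 library was left out (*Ung*, without *Nedd4l* fl/fl VillinCre replicate 2). In the germinal center list 1 gene, *Ezh2*, was called lower with array weights (adjusted p = 0.0274). *Nedd4l* was called with array weights (-1.09) and without *Nedd4l* fl/fl VillinCre replicate 2 (-1.28), and *Ly6g* with array weights (-0.40). The cause of these shifts was not tested. The replicate block called 0 genes higher and 0 lower and changed no call. After the genotype mean of each gene was removed, same-numbered libraries correlated at -0.0286, -0.0898 and -0.0556, so the numbers were not taken as pairs. The planned edgeR and DESeq2 fits on recovered reads were not run. With 3 libraries per genotype the standard errors of the 8 genes ran from 0.12 to 0.52. Differences smaller than the intervals of these genes were not detectable with this number of libraries and the spread between them.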

Other observations

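Genes of the lists that were named by rule but stand in no comparison above had these values. *Cd40*, the receptor for T cell help, was at 139, 59.7 and 76.3 normalized counts in *Nedd4l* fl/fl VillinCre and at 55.3, 47.7 and 71.9 in *Nedd4l* fl/fl colon (log2 fold change 0.57, limma adjusted p = 0.462). *Cd83*, an activation marker of B cells and dendritic cells, was at 253, 264 and 198 against 170, 135 and 234 (0.43, adjusted p = 0.416). *Irf8*, a factor of germinal center B cells and of myeloid cells, was at 3438, 2449 and 2582 against 2015, 2126 and 2537 (0.33, adjusted p = 0.362). *Madcam1*, the endothelial address molecule through which lymphocytes enter the gut, was at 237, 139 and 114 against 75.1, 76.5 and 153 (0.70, adjusted p = 0.423). *Ebf1*, a factor of B cell specification, was at 177, 80.7 and 61.9 against 78.0, 60.3 and 120 (0.22, adjusted p = 0.841). In each of these 5 genes the libraries of the genotypes overlapped. *Nedd4l* fl/fl VillinCre replicate 1 was the highest library in 4 of them, and *Nedd4l* fl/fl VillinCre replicate 2 in *Cd83*.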
